A study of Mus musculus with 12 samples.

Results

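The catalytic subunit of telomerase, the shelterin proteins and their chromatin and helicase partners were followed on expression arrays of medulloblastomas (MBs) from XRCC4/p53-deficient mice and of normal cerebellar tissue. The members are 10 genes (Tert, Terf1, Terf2, Pot1a, Pot1b, Tinf2, Acd, Atrx, Daxx and Rtel1) of 18194 genes measured. They were chosen by name for their part in telomere maintenance, not by their values, though earlier results of these data were known. Each gene value is the mean log2 level of the probe sets that map to that gene alone, without those whose names carry the suffixes s or x, which mark probes that can also bind other transcripts. Where a gene has no other probe set, the suffixed ones were averaged. The 10 genes have 28 such probe sets, of which 24 entered the gene values.

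The MBs came from 8 Nestin-Cre p53-/- mice, 6 of them with the Xrcc4 genotype c/- and 2 (MB_706 and MB_1206, named here as in the labels) with c/c. Nestin-Cre acts in neural stem and progenitor cells, whereas p53 is absent from the whole animal. Normal tissue was granule neural progenitors (GNPs) of 2 mice, called CGNP in the labels, and whole cerebellum (WC) of 2 mice. These were control animals described by the authors as matched for age and genotype, and neither property is in the labels. XRCC4 is a ligation factor of classical non-homologous end joining. The labels call the MBs tumor tissue, while 6 of the 8 tumors are also listed as cultured cells in the methods. Which of the materials was put on the arrays is therefore unclear, and any effect of culture was not tested. The number in each sample's name is that of a different mouse. Complex genome rearrangements were present in 5 MBs (MB_706, MB_794, MB_1206, MB_1207 and MB_1224) and absent from 3 (MB_630, MB_1187 and MB_1197), by the study's table of tumors.

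Telomeres are repeats that cap chromosome ends and shorten with cell division. Telomerase, in which Tert copies the RNA template Terc, extends them. Shelterin covers the repeats: Terf1 and Terf2 bind double-stranded repeats, Tinf2 bridges them, and Acd (TPP1) joins the bridge to Pot1, which binds the single-stranded overhang. Mice carry Pot1a and Pot1b in place of the single human POT1. Atrx and Daxx deposit the histone variant H3.3 at telomeres and other repeats, and their loss in human tumors is associated with a recombination-based way of keeping telomeres, alternative lengthening of telomeres (ALT). Rtel1 is a helicase that unwinds the t-loops and G-quadruplexes of telomeres. Unprotected ends can be joined by end joining, and dicentric chromosomes formed in this way are a known source of complex rearrangements.

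A log2 level of 2.20 is the floor of the processed values, and values there have no order. A level of 5 is used as a line for description only, and between 42.1% and 43.4% of probe sets lay above it on each array. Xrcc4 itself lay between 2.44 and 3.57 in the MBs, at 3.57 and 4.19 in GNPs and at 4.25 and 4.34 in cerebellum, below the line in all 12 samples. The difference between the array controls at the 3′ and 5′ end of a transcript was 2.93 in MB_706, from 0.56 to 0.82 in the other MBs and from 0.15 to 0.52 in normal tissue. All 7 measured markers of dividing cells were higher in MBs than in normal brain, and their mean level was 9.89 to 10.59 in MBs, 6.39 to 6.54 in GNPs and 4.16 to 4.42 in cerebellum. All 5 microglia markers were higher than in normal brain too. Their mean level was 7.14 to 8.55 in MBs, 4.15 to 5.29 in GNPs and 5.80 to 5.98 in cerebellum. By limma against cerebellum alone, Aif1, C1qa and Tyrobp passed. Cx3cr1 (0.55, adjusted p = 0.21) and Csf1r (0.55, adjusted p = 0.526) did not. Markers of mature neurons and oligodendrocytes were highest in cerebellum. Their mean level was 7.79 to 10.05 in MBs, 8.35 to 8.42 in GNPs and 12.69 to 12.71 in cerebellum for mature granule neurons, and 3.49 to 6.75 in MBs, 4.23 to 4.48 in GNPs and 11.15 to 11.21 in cerebellum for Purkinje cells. For oligodendrocytes it was 3.40 to 5.51 in MBs, 5.04 to 6.36 in GNPs and 9.60 to 9.65 in cerebellum. Astroglia markers had a mean level of 4.92 to 7.15 in MBs, 7.88 to 8.11 in GNPs and 8.19 to 8.24 in cerebellum. They did not move together between GNPs and cerebellum. By limma Gfap was higher in GNPs (4.01, adjusted p = 0.00219) and S100b lower (-4.51, adjusted p = 0.0123). Slc1a3 (-1.66), Aqp4 (0.19) and Aldh1l1 (0.87) did not pass. Of the 6 granule progenitor markers, which were all higher in MBs than in normal brain, Atoh1 averaged 5.95 in GNPs and 2.76 in cerebellum, while Gli1 averaged 2.30 in GNPs and 3.50 in cerebellum. Mki67 was close to the floor in cerebellum (2.25 and 2.33), and the part of these cell types in the results on telomere genes was not tested. In these bulk samples, fewer cells of a type and less RNA per cell cannot be told apart.

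Several telomere protection genes rose in MBs. Relative to normal brain (GNPs and cerebellum together), Terf1, Tinf2, Pot1a and Daxx were higher, 0 of the 10 genes were lower, and 6 did not pass the test (limma over all 18194 genes, Benjamini-Hochberg adjusted p under 0.05). The background was 20.0% of all genes higher and 16.4% lower, so that 36.4% of genes passed in either direction. The median log2 fold change was 0.27 over the 10 genes and 0.00 over all genes. For the same 4 genes the MBs lay above every normal sample, which held for 15.5% of all genes. Each of the 4 passed the test when any of the 12 samples was left out in turn.

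**Figure D1:**
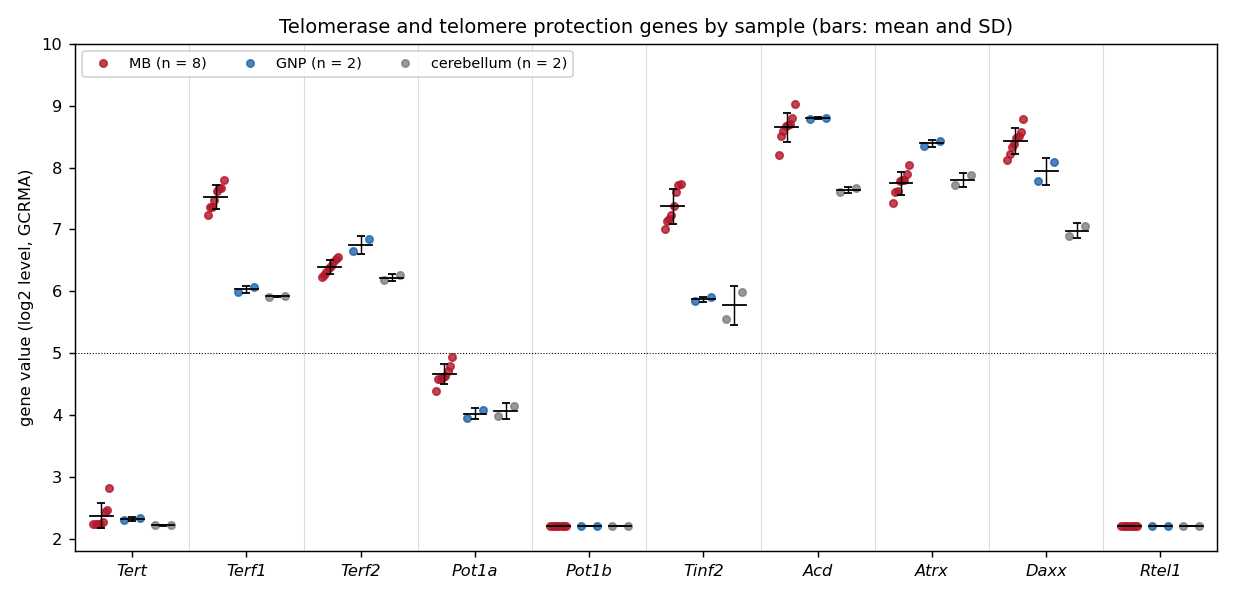
Gene values (log2 level, vertical axis) of the 10 genes in each of the 12 samples, with MBs in red, GNPs in blue and cerebellum in grey. Each point is a sample, the dotted line marks a level of 5, and black bars show group means with SD. Terf1, Tinf2, Pot1a and Daxx lie higher in all 8 MBs than in all 4 normal samples, while Tert, Pot1b and Rtel1 lie at or near the floor in every group.

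Tert, the reverse transcriptase of telomerase, was close to the floor everywhere. Its level was 2.24 to 2.82 in MBs (median 2.26), 2.34 and 2.30 in GNPs, and 2.21 and 2.21 in cerebellum. MB_1187 (2.82), MB_630 (2.46) and MB_1207 (2.44) were the highest samples, and the other 5 MBs lay within the range of the normal samples. Between MBs and normal brain the log2 fold change was 0.10 (SE 0.105, adjusted p = 0.512 by limma), with a 95% confidence interval of -0.13 to 0.34. Of the 2 Tert probe sets, 1456941_at gave the spread, with 3.42 in MB_1187, and 1450254_at lay between 2.22 and 2.27 in all MBs. Neither reached a level of 5 in any sample, so a change of Tert RNA below the reach of these probe sets was not detectable.

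Known activators and repressors of Tert transcription were measured as a list of 12. Over all genes, 20.0% were higher in MBs than in normal brain and 16.4% lower. Of the 12, 8 were higher and 0 lower, with a median log2 fold change of 1.09. Among them the largest rises were those of Myc (4.13, SE 1.01, adjusted p = 0.00765) and Mycn (3.35, SE 0.464, adjusted p = 0.000192), which encode transcription factors that bind the E-box CACGTG and are known to activate TERT in human cells. Myc lay between 7.34 and 11.47 in MBs, at 6.95 and 7.02 in GNPs and at 3.15 and 3.03 in cerebellum. Against GNPs alone Myc did not pass (2.19, adjusted p = 0.0968), whereas it passed against cerebellum (6.08, adjusted p = 0.000397). Mycn lay between 7.40 and 9.46 in MBs, at 5.93 and 5.78 in GNPs and at 3.96 and 3.97 in cerebellum. By the study's table of tumors, Mycn was gained in all MBs except MB_1206, and Myc in MB_630, MB_794 and MB_1224. In MB_1224, which had the highest Myc level (11.47), Tert was at 2.27. In MB_630, which had the next highest Myc level (10.99), Tert was at 2.46. In MB_1207, which had the highest Mycn level (9.46), Tert was at 2.44.

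The promoter windows of Tert and of the members that rose are shown because they were searched for the letters at which Myc, Mycn and the GC-box factors Sp1 and Sp3 are known to bind. Each window runs from 250 bases before to 50 bases after a transcript start of the gene on its own strand, from RefSeq (GRCm38.p6). That start is the first base of the annotated gene for Tert and lies 41 bases inside the gene for Daxx, 59 for Pot1a and 342 for Tinf2, and Daxx has 3 windows in the table, of which the first is shown. The Tert window is chr13:73626661-73626960 on the plus strand, that of Tinf2 chr14:55681768-55682067 on the minus strand, that of Pot1a chr6:25809169-25809468 on the minus strand and that of Daxx chr17:33909195-33909494 on the plus strand. Capitals mark the E-box CACGTG and the GC box GGGCGG with its reverse complement CCGCCC. Both motifs were searched on both strands, and overlapping matches were counted.
Tert: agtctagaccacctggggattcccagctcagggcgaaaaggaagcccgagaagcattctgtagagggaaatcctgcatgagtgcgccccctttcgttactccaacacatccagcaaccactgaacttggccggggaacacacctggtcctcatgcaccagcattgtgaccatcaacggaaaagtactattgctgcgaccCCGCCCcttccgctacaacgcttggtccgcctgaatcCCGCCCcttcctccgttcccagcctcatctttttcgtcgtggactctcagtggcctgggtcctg
Tinf2: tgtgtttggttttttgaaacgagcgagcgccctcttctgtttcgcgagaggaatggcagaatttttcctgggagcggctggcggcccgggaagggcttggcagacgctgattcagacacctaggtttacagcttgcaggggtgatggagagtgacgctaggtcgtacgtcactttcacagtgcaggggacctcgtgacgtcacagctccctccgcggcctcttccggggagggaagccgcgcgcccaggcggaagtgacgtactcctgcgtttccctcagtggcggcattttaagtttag
Pot1a: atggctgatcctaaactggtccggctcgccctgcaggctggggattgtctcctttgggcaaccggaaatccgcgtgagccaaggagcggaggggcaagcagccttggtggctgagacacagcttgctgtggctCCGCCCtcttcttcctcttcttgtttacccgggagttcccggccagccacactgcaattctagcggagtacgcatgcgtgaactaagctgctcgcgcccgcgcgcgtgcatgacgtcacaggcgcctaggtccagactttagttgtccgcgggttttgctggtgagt
Daxx: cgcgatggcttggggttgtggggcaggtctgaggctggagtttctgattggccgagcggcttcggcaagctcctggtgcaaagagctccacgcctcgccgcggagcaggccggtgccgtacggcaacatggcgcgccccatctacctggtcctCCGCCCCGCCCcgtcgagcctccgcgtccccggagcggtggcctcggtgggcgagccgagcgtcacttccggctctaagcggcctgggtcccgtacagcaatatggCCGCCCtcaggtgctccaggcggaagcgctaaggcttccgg
Of the 10 genes, 9 had a window in the RefSeq table, all but Terf1. CACGTG was in 0 of these 9 windows and in 7.24% of the 27025 windows of all genes. A GC box (GGGCGG or CCGCCC) was in 6 of the 9 and in 35.9% of all windows. Tert had 2 of them, Daxx 3, of which 2 overlap, Pot1a 1 and Tinf2 0. A match is only a description of these letters in this window.

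Terf1, which binds the double-stranded repeat and helps the replication fork pass through it, rose the most clearly. Its level was 7.24 to 7.80 in MBs (median 7.56), 5.98 and 6.07 in GNPs, and 5.91 and 5.93 in cerebellum. The lowest MB, MB_1206, was above the highest normal sample by more than the whole range of the MBs. Terf1 was 2.93-fold higher in MBs than in normal brain (log2 fold change 1.55, SE 0.101, adjusted p = 8.94e-07), and the exact two-sided permutation test gave p = 0.00202, the smallest that 8 against 4 samples allow. Against GNPs the log2 fold change was 1.50 (SE 0.134, adjusted p = 1.55e-05), and against cerebellum 1.61 (SE 0.134, adjusted p = 5.65e-06). GNPs and cerebellum did not differ past the test (0.11, 95% confidence interval -0.27 to 0.49). The 3 Terf1 probe sets rose by 2.31, 1.53 and 0.82 on the log2 scale between MBs and normal brain, each past the test over all probe sets. The third of these, 1431332_a_at, did not pass against GNPs alone (0.62, adjusted p = 0.177), and there MB_706 (6.11) and MB_1224 (6.63) lay below CGNP_2705 (6.69).

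Tinf2, which encodes TIN2, the bridge of shelterin, rose by a like amount with more spread. Its level was 7.01 to 7.74 in MBs (median 7.31), 5.90 and 5.84 in GNPs, and 5.55 and 5.99 in cerebellum. MB_1187, MB_706 and MB_1224 were highest and MB_630 lowest, and no MB overlapped a normal sample. Relative to normal brain the log2 fold change was 1.55 (SE 0.155, adjusted p = 1.88e-05), or 2.93-fold. It was 1.51 against GNPs (adjusted p = 0.000279) and 1.60 against cerebellum (adjusted p = 0.000129). Probe set 1437166_at changed by 2.27 and 1451163_at by 0.83, both past the test.

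Pot1a, the mouse Pot1 protein that represses the damage response at the overhang, was higher in MBs by a smaller amount. Its gene value was 4.39 to 4.93 in MBs (median 4.63), 3.95 and 4.09 in GNPs, and 3.98 and 4.15 in cerebellum. The groups did not overlap, and MB_1207 was the highest sample. Relative to normal brain the log2 fold change was 0.61 (SE 0.0859, adjusted p = 0.000208). It was 0.64 against GNPs (adjusted p = 0.00163) and 0.59 against cerebellum (adjusted p = 0.00195). Of 4 probe sets only 1448379_at lay above 5, with 8.86 to 9.58 in MBs and 7.95 to 8.21 in normal tissue, and its log2 fold change was 1.18 (adjusted p = 1.9e-05). Probe set 1432077_at, below 5 throughout, changed by 1.03 (adjusted p = 0.00608), and the other 2 did not pass. The gene value averages all 4, which keeps it below the line. Its paralog Pot1b, which controls trimming of the overhang in mice, was at the floor of 2.20 in all 12 samples on its single probe set.

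Terf2, which protects ends from end joining, did not pass the test against normal brain as a whole. Its level was 6.24 to 6.55 in MBs (median 6.39), 6.65 and 6.85 in GNPs, and 6.26 and 6.18 in cerebellum. All 8 MBs were below both GNP samples and overlapped the cerebellum samples. Relative to GNPs, the Terf2 probe sets changed by -0.40 (1421147_at), -0.42 (1455651_at) and -0.25 (1459650_at). None of them passed limma over all probe sets (adjusted p = 0.0562 to 0.25). For the gene value, the log2 fold change was -0.09 relative to normal brain (adjusted p = 0.647) and 0.17 relative to cerebellum (adjusted p = 0.152). Relative to GNPs it was -0.36 (SE 0.0888, adjusted p = 0.00963). Without the GNP sample CGNP_2705 the difference from GNPs no longer passed (-0.26, adjusted p = 0.145).

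Acd encodes TPP1, the shelterin subunit that recruits telomerase to the chromosome end, and was lowest in cerebellum. Its level was 8.21 to 9.03 in MBs (median 8.68), 8.79 and 8.81 in GNPs, and 7.60 and 7.67 in cerebellum. MBs overlapped GNPs and lay above cerebellum. Its log2 fold change was 1.02 relative to cerebellum (SE 0.161, adjusted p = 0.000481), -0.15 relative to GNPs (95% confidence interval -0.51 to 0.22) and 0.44 relative to both (adjusted p = 0.214).

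Daxx, the histone chaperone that binds H3.3 and works with Atrx, was highest in MBs and lowest in cerebellum. Its level, on the single probe set 1419026_at, was 8.12 to 8.78 in MBs (median 8.43), 7.79 and 8.10 in GNPs, and 6.90 and 7.06 in cerebellum. The lowest MB, MB_630, was just above the higher GNP sample, CGNP_2705. Daxx was 1.95-fold higher in MBs than in normal brain (log2 fold change 0.96, SE 0.216, adjusted p = 0.00467) and 2.72-fold higher than in cerebellum (log2 fold change 1.44, adjusted p = 3.61e-05). Against GNPs the log2 fold change was 0.48 (SE 0.156, adjusted p = 0.0353). This last call did not pass without CGNP_2698 (0.33, adjusted p = 0.332) or without MB_1187, MB_1207, MB_1224 or MB_794 (adjusted p = 0.0509 to 0.0566).

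Atrx, the ATP-dependent remodeller that works with Daxx, gave a gene value on which its probe sets did not agree. The gene value was 7.43 to 8.04 in MBs (median 7.79), 8.44 and 8.35 in GNPs, and 7.87 and 7.71 in cerebellum. All MBs were below both GNP samples and overlapped cerebellum. The log2 fold change was -0.65 relative to GNPs (SE 0.134, adjusted p = 0.00353), -0.05 relative to cerebellum (adjusted p = 0.932) and -0.35 relative to both (SE 0.150, adjusted p = 0.0966).

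Between MBs and normal brain, probe sets 1420947_at (-1.30, adjusted p = 0.00059) and 1450051_at (-1.11, adjusted p = 0.00235) of Atrx were lower, whereas 1453734_at was higher (0.89, adjusted p = 0.00467). Probe set 1433537_at, the brightest, lay at 11.78 to 12.23 in MBs and 11.69 to 12.07 in normal tissue (0.18, adjusted p = 0.171). With the brightest probe set as the gene value, the sign against GNPs turned (0.055, adjusted p = 0.845). The direction of Atrx therefore depends on the probe set, and where each probe set lies on the transcript was not analysed here.

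**Figure D2:**
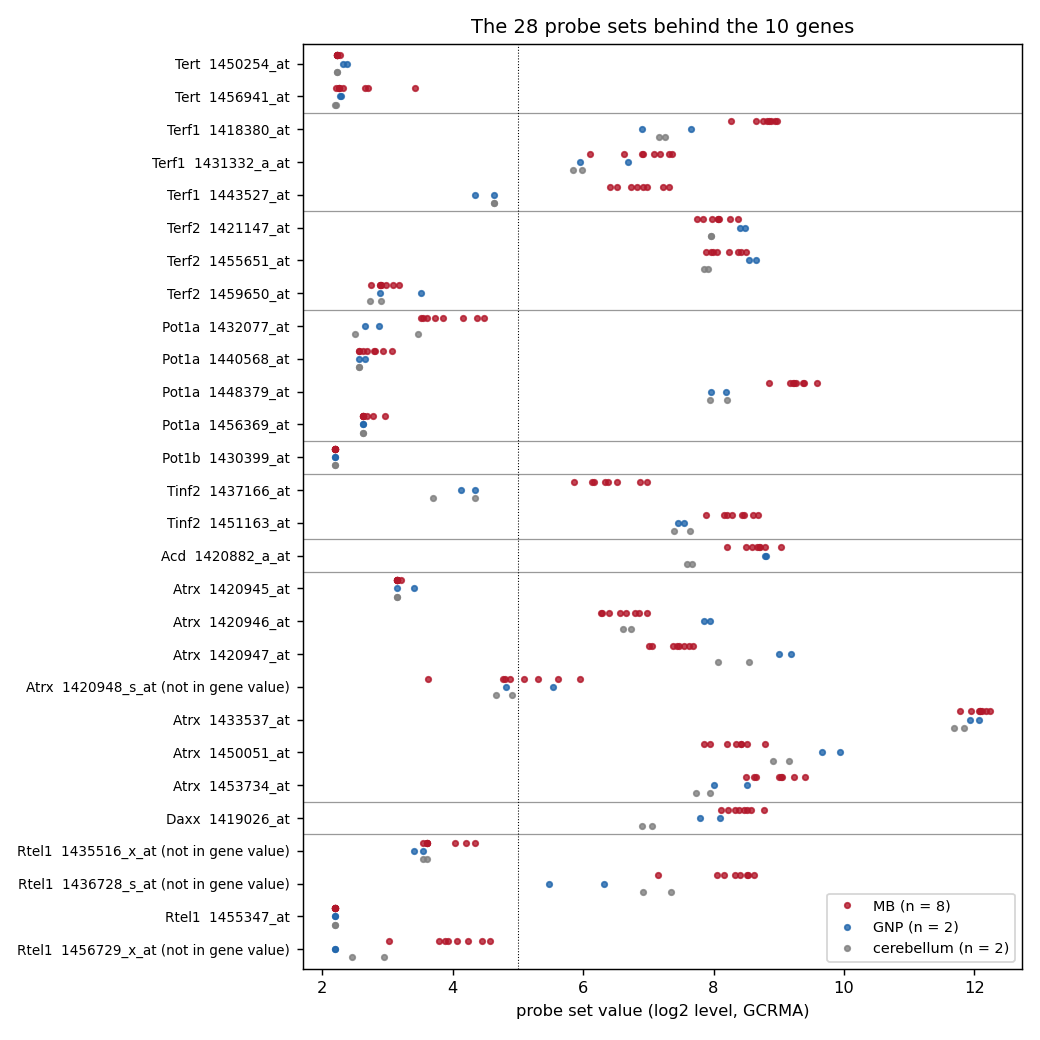
Log2 levels (horizontal axis) of the 28 probe sets of the 10 genes in MBs (red), GNPs (blue) and cerebellum (grey), with 1 point per sample and a dotted line at 5. Both Tinf2 probe sets and 2 of the 3 Terf1 probe sets lie to the right in all MBs, 1431332_a_at of Terf1 overlaps a GNP sample, the Atrx probe sets move in both directions, and for Rtel1 the probe set used for the gene value is at the floor while 1436728_s_at is above 5 in all 12 samples.

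Rtel1, the telomere helicase, was listed at the floor in all 12 samples by its gene value, which rests on probe set 1455347_at alone. Its other 3 probe sets carry the suffixes s or x. Probe set 1436728_s_at lay between 7.14 and 8.62 in MBs, at 5.48 and 6.32 in GNPs and at 6.92 and 7.35 in cerebellum, with overlap between the MBs and cerebellum. Its log2 fold change was 1.70 relative to normal brain (SE 0.357, adjusted p = 0.00374) and 2.32 relative to GNPs (adjusted p = 0.000797). Probe set 1456729_x_at lay below 5 throughout and changed by 1.54 (adjusted p = 0.00106), without overlap between MBs and normal samples. How much of these signals comes from other transcripts was not tested.

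**Figure D3:**
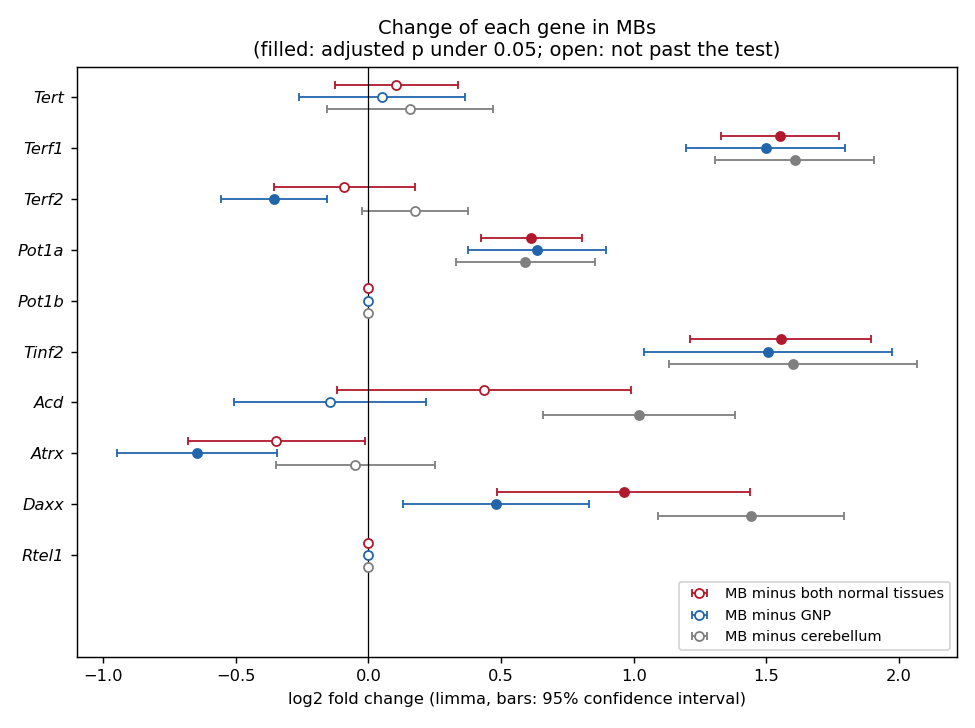
Log2 fold change of each gene in MBs (horizontal axis, limma, with 95% confidence intervals) relative to both normal tissues (red), GNPs (blue) and cerebellum (grey). Filled points passed an adjusted p of 0.05. Terf1 and Tinf2 lie near 1.5 in all 3 comparisons, and Acd, Daxx, Terf2 and Atrx differ in value between the comparison with GNPs and that with cerebellum.

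By normal tissue, 4 of the 10 genes were higher and 2 lower (Terf2 and Atrx) in MBs than in GNPs, where 18.7% of all genes were higher and 18.6% lower (37.3% in all). Relative to cerebellum 5 were higher (Terf1, Tinf2, Daxx, Acd and Pot1a) and 0 lower, where 22.2% of all genes were higher and 21.8% lower (44.0% in all). GNPs themselves had higher levels than cerebellum of 4 genes and lower levels of 0, against 14.9% and 13.6% of all genes (28.5% in all). These were Acd (1.16, adjusted p = 0.00187), Daxx (0.96, adjusted p = 0.00468), Atrx (0.60, adjusted p = 0.0248) and Terf2 (0.53, adjusted p = 0.00555). The call for Atrx was lost when any of the 4 normal samples was left out (adjusted p = 0.0548 to 0.133). With 2 samples in a group, an exact permutation test cannot go below 0.0222 for 8 against 2 samples or 0.167 for 2 against 2. The 3 comparisons share samples and are not independent of each other.

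Genes listed for their links to telomerase, its assembly or its RNA were all higher in MBs by the test. Of 14 listed, 12 were measured, Terc and Tep1 having no probe set of their own. In MBs 12 of the 12 were higher than in normal brain, where 20.0% of all genes were higher. They were also all higher than in GNPs (18.7% of all genes) and than in cerebellum (22.2% of all genes). The median log2 fold change was 1.72 relative to normal brain. The largest rises were those of Shq1, a chaperone of dyskerin (3.23, SE 0.278, adjusted p = 6.63e-06), and Nhp2, a protein of the H/ACA particle (2.52, SE 0.276, adjusted p = 3.57e-05). Shq1 averaged 5.82 ± 0.52 in MBs (SD, n = 8) and 2.58 ± 0.30 in normal brain (SD, n = 4). Nhp2 averaged 11.02 ± 0.37 in MBs and 8.49 ± 0.63 in normal brain. Dkc1, which encodes dyskerin itself, changed by 2.04 (SE 0.184, adjusted p = 9.3e-06) and was named after its value was seen. Dyskerin and its H/ACA partners also serve small nucleolar RNAs and ribosome production. The list is mixed and also holds Pinx1 and Smg6. Smg6 lay below 5 in every sample, and its level in MB_1224 (4.26) was below that in WC_2647 (4.29).

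**Figure D4:**
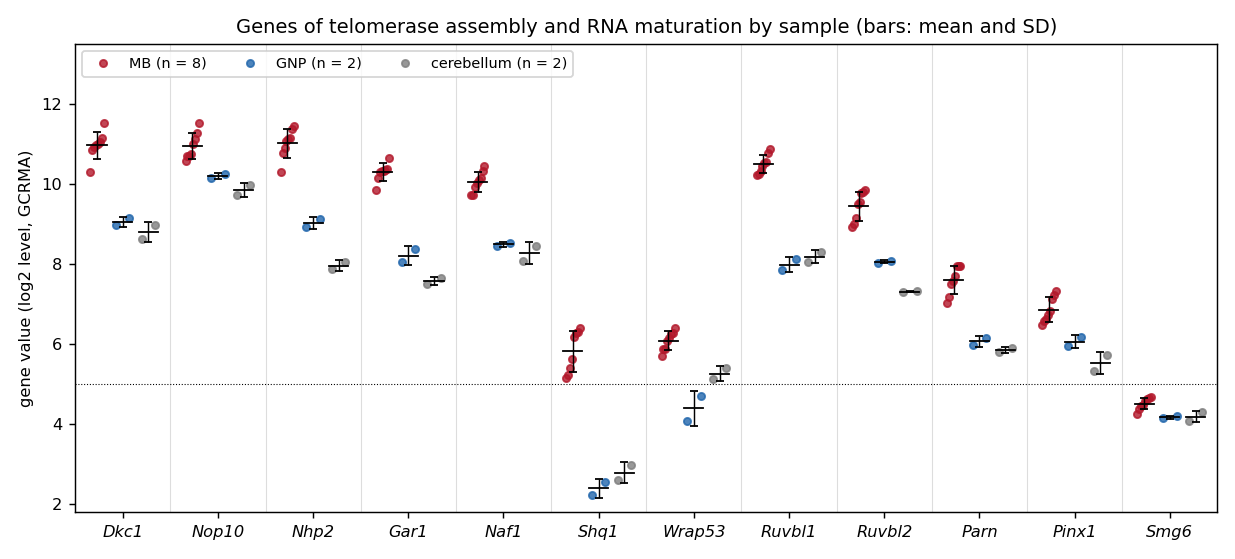
Gene values (log2 level, vertical axis) of the 12 measured genes listed for telomerase, its assembly or its RNA in MBs (red), GNPs (blue) and cerebellum (grey). Points are samples and black bars the mean and SD. All 12 genes are higher in MBs by the test, with Shq1 averaging 5.82 in MBs and 2.58 in normal brain.

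Partners of shelterin and genes that replicate telomere ends were measured as a list of 18, of which 12 were higher and 2 lower in MBs than in normal brain (median log2 fold change 0.96 relative to GNPs and 0.90 relative to cerebellum). Prim1, the catalytic subunit of primase (3.27, SE 0.199, adjusted p = 5.65e-07), and Blm, a RecQ helicase (3.21, SE 0.194, adjusted p = 5.58e-07), rose most. Both also serve replication of the whole genome. The 2 that fell were Ten1, of the CST complex that fills in the overhang (-0.66, SE 0.185, adjusted p = 0.0166), and Terf2ip, which encodes Rap1, the shelterin subunit bound to Terf2 (-0.45, SE 0.103, adjusted p = 0.00544). Ten1 averaged 7.35 ± 0.17 in MBs and 8.01 ± 0.50 in normal brain, and Terf2ip 5.32 ± 0.14 in MBs and 5.77 ± 0.22 in normal brain. Both passed against GNPs (Ten1 -1.09, Terf2ip -0.57), and neither against cerebellum (Ten1 -0.23, adjusted p = 0.159, and Terf2ip -0.33, adjusted p = 0.0586).

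Of 17 genes of H3.3 deposition and telomere chromatin, 16 were measured (not Suv39h1). In MBs 9 were higher and 0 lower than in normal brain (median 0.91), where 20.0% of all genes were higher and 16.4% lower. The largest rises were those of Asf1b, a histone chaperone tied to replication (3.99, SE 0.439, adjusted p = 3.73e-05), and Suv39h2, which methylates histone H3 at lysine 9 (2.82, SE 0.356, adjusted p = 9.97e-05). Asf1b averaged 7.76 ± 0.34 in MBs and 3.76 ± 1.23 in normal brain. Of 13 genes linked to ALT, 6 were higher and 2 lower against the same background (median 0.29). Among those that rose was Top3a, a topoisomerase (2.32, SE 0.311, adjusted p = 0.000149). Tspyl5 (-1.03, SE 0.354, adjusted p = 0.0426) and Rmi1, the partner of Blm and Top3a (-0.55, SE 0.173, adjusted p = 0.0272), fell. Both passed against GNPs (Tspyl5 -1.37, Rmi1 -0.77), and neither against cerebellum (Tspyl5 -0.69, adjusted p = 0.273, and Rmi1 -0.34, adjusted p = 0.237). The median over all genes was 0.00, and the markers of dividing cells given above were higher in the same samples.

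Across the 12 samples, the genes whose log2 values ran most closely with Terf1, among those above 5 in at least 2 samples, were Exo1 (Pearson r = 0.99), Hk2 (0.99) and Haus6 (0.99). For Tinf2 they were Rtkn2 (0.98), Pogz (0.98) and Zkscan17 (0.98), and for Daxx Pde12 (0.98), Nin (0.98) and Nkd1 (0.98). For Tert they were Bfar (0.88), Abraxas2 (0.85) and Top1 (0.84), over values that lie at or near the floor. These coefficients are descriptions over samples that fall into 3 groups, so any gene with the same order of groups ranks high.

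MBs with complex genome rearrangements were set against those without, a question raised by the part that unprotected ends are known to play in such events. No member passed the test (0 of 10 in limma), nor did any of the 18194 genes (0% called). At an unadjusted p under 0.05 the counts were 0 of 10 members and 553 of all genes (3.04%), and no alternative setting that was run called any of the 10. No member separated the tumor groups without overlap, which 2.24% of all genes did.

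**Figure D5:**
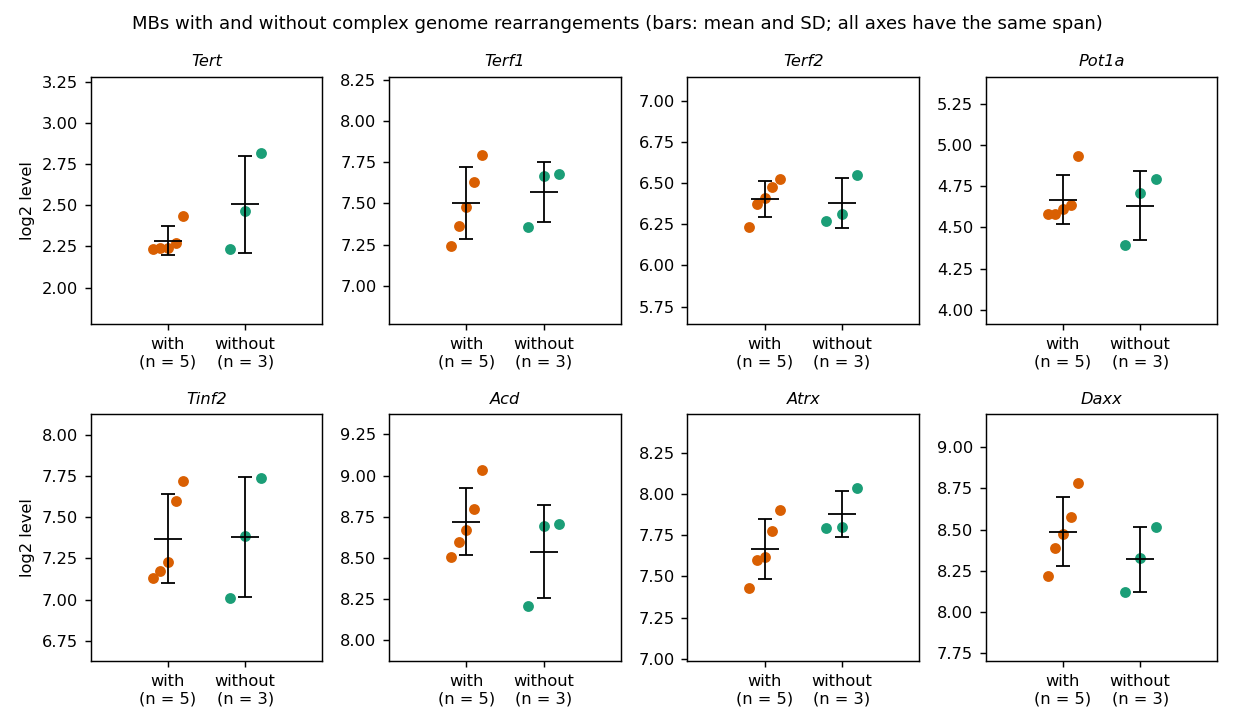
Log2 levels, with 1 panel for each of the 8 genes whose value was not at the floor in all samples, in the 5 MBs with and the 3 MBs without complex genome rearrangements. Points are tumors and black bars the mean and SD, and all vertical axes have the same span. The groups overlap for each gene, and the differences between means run from -0.22 for Tert to 0.18 for Acd.

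Tert was 2.24, 2.44, 2.27, 2.24 and 2.24 in the MBs with rearrangements (MB_1206, MB_1207, MB_1224, MB_706 and MB_794), and 2.82, 2.24 and 2.46 in those without (MB_1187, MB_1197 and MB_630). The difference of -0.22 (95% confidence interval -0.53 to 0.09) rests on MB_1187, without which it was -0.06. Atrx was 7.43, 7.90, 7.78, 7.62 and 7.60 in the tumors with rearrangements, and 7.79, 8.04 and 7.80 in those without. Its difference was -0.21 (95% confidence interval -0.50 to 0.07), and MB_1207 lay within the range of the tumors without rearrangements, above 2 of them.

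The remaining measured members had differences of -0.07 for Terf1 (95% confidence interval -0.42 to 0.29), 0.03 for Terf2 (-0.19 to 0.24), 0.04 for Pot1a (-0.26 to 0.33), -0.01 for Tinf2 (-0.53 to 0.51), 0.18 for Acd (-0.21 to 0.58) and 0.17 for Daxx (-0.18 to 0.52). These intervals give the precision of 5 against 3 tumors, for which an exact permutation test cannot go below 0.0179. Rtel1 was at the floor by its gene value. Its probe sets outside that value differed by 0.60 (1436728_s_at, SE 0.273), 0.59 (1456729_x_at, SE 0.283) and 0.38 (1435516_x_at, SE 0.199). None of these differences passed the test over all probe sets. They are differences of single probe sets, so they cannot be set against gene values that average several. Among single probe sets of other members, 1456941_at of Tert differed by -0.45, 1450051_at of Atrx by -0.42 and 1443527_at of Terf1 by 0.34. Both c/c tumors belong to the group with rearrangements, and leaving them out again gave 0 calls. All 5 wider lists had 0 genes called in this comparison. Of the members, Pot1a lies on chromosome 6 and Tert on chromosome 13, and both chromosomes are listed as rearranged in MB_1206. In that tumor Pot1a was at 4.61, within the range of 4.39 to 4.93 over all MBs, and Tert at 2.24.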

How the data were processed

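Affymetrix mouse expression arrays of 8 MBs, 2 GNP and 2 whole cerebellum samples were analysed. The deposited values are log2 levels per probe set, which the authors made by reading the raw arrays with the R library affy and normalizing them with GCRMA. Versions are not given in the sources used here. GCRMA sets dim probe sets to a common floor, which shrinks fold changes of weakly expressed genes. Precision is limited by how many arrays there are.

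The table holds 45101 probe sets. Without the 64 controls, 34945 mapped to 1 gene in the platform annotation, 932 to several and 9160 to none. Averaging gave 18194 genes, 290 of them from suffixed probe sets only, with no filter on level. Groups came from the labels, and rearrangements, gains of Myc and Mycn and Xrcc4 alleles from the study's table by mouse number. limma 3.58.1 in R 4.3.3 (lmFit, eBayes; two-sided; Benjamini-Hochberg over all genes, threshold 0.05) compared 8 MBs with 4 normal samples, 3 groups with each other, and 5 MBs with 3. For single members an exact permutation test was added. The methods' t-test was run as an alternative, with other rules for probe sets, scaling, weights, spread, level filter, minimum fold change and left-out samples. Tested on simulated data, limma over 18194 genes found 72% of shifts of 1 (log2) and 91.5% of shifts of 2 between MBs and normal brain. Between MBs with and without rearrangements it found 34.5% of shifts of 1 and 82.5% of shifts of 2. The simulation gave all samples the spread of the MBs and shifted only genes averaging above 5. Normal brain pools GNPs and cerebellum, and the spread between these tissues was not simulated. The shares can therefore be too high for that comparison and do not cover genes near the floor.

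The members and lists were chosen with earlier results of these data known. Named genes are the 10 members, the 2 largest rises and 2 largest falls past the test in each wider list, and the 3 genes most correlated with up to 4 members. Myc, Mycn and Xrcc4 were also named. One gene that this rule names is not reported here. Figures were drawn with matplotlib 3.10.9.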

Additional observations from a re-analysis of the deposited data

Results flagged for a closer look

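A few values stood apart from the rest of their group among 20 groups tested for a sample far from the others, where chance alone marks about 1 in 20 groups. Tert in MB_1187 was at 2.82, against 2.46 for the nearest of the 8 MBs, on probe set 1456941_at only. Among the 5 MBs with complex genome rearrangements, Tert in MB_1207 was at 2.44, against 2.27 for the nearest. In the same tumor and group Pot1a was at 4.93, against 4.64 for the nearest.

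Signal was also present in probe sets that the gene value of Rtel1 leaves out, with a mean over the 8 MBs above the highest normal sample. It was 8.22 for 1436728_s_at, against a highest normal value of 7.35, 4.00 for 1456729_x_at, against 2.95, and 3.82 for 1435516_x_at, against 3.61. For 1435516_x_at the log2 fold change did not pass the test (0.30, adjusted p = 0.221).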

How the results depend on the processing

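The 10 genes had 1070 values under alternative settings, and 1007 of these kept their side of the test and their direction. Of the rest, 28 lost the call, 12 gained one and 23 turned in sign. Changes of sign of Pot1b, whose fold changes were under 0.005 in the main fit, were not counted. Of the 23, only Atrx with its brightest probe set passed the test on either side (0.055 against GNPs, where it passed before, and 0.30 against cerebellum, where it passed after), and the same choice gave Atrx 0.18 against normal brain. Arrays shifted to the same median gave 0.0071 for Atrx against cerebellum, 0.0038 for Pot1a between GNPs and cerebellum, and 0.057 for Tinf2 between MBs with and without rearrangements. Tinf2 turned to -0.016 between GNPs and cerebellum with its brightest probe set, and Terf1 to 0.068 between MBs with and without rearrangements without the c/c tumors. Leaving out a sample gave -0.19 to 0.030 for Terf2 against normal brain, -0.013 to 0.074 for Tert against GNPs, and -0.13 to 0.031 for Atrx against cerebellum. Between GNPs and cerebellum it gave -0.13 to 0.043 for Pot1a and -0.12 to 0.32 for Tinf2, and between MBs with and without rearrangements -0.030 to 0.11 for Terf2, -0.082 to 0.12 for Pot1a and -0.19 to 0.17 for Tinf2. Requiring a log2 fold change over 0.5 left 2 genes called against normal brain, 2 against GNPs and 1 between GNPs and cerebellum, and the methods' t-test after Benjamini-Hochberg adjustment left 1 between GNPs and cerebellum. Leaving out each sample in turn gave 4 to 5 genes against normal brain, 5 to 6 against GNPs, 5 to 5 against cerebellum, 3 to 4 between GNPs and cerebellum, and 0 to 0 between MBs with and without rearrangements. Atrx passed against normal brain without the cerebellum sample WC_2647 (-0.47, adjusted p = 0.0308), and Acd (adjusted p = 0.0153) and Atrx (adjusted p = 0.0192) passed when the 3 groups were fitted apart and both normal tissues weighted equally. The cause of these gains and losses was not tested. Rtel1 passed in all 3 comparisons of MBs when suffixed probe sets were averaged in (0.88, 1.11 and 0.65). MB_706, with the largest difference between 3′ and 5′ controls, changed none of these counts when left out. No paired analysis was possible because the labels give no replicate numbers shared between groups.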

Other observations

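Between the normal tissues, some genes of the wider telomere lists differed, where 28.5% of all genes did, and a few are named here after their values were seen. Of the 18 shelterin partners and end replication genes, GNPs had 4 at a higher and 2 at a lower level than cerebellum did (limma), where 14.9% of all genes were higher and 13.6% lower. Rif1, which controls replication timing and, in budding yeast, telomere length, averaged 6.18 ± 0.03 in GNPs and 8.53 ± 0.07 in cerebellum (SD, n = 2 each), a log2 fold change of -2.36 (SE 0.165, adjusted p = 4.19e-06 by limma). In MBs Rif1 lay between 7.99 and 8.65, which was 2.10 above GNPs (adjusted p = 1.44e-06) and did not pass against cerebellum (-0.25, adjusted p = 0.159). Slx4, a scaffold of structure-specific nucleases that trim telomere junctions, was higher in GNPs than in cerebellum by 0.97 (adjusted p = 0.000232). Of the 12 regulators of Tert transcription, 5 were higher and 1 lower in GNPs, and E2f1 was higher by 1.67 (adjusted p = 0.000454).

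Of the 16 measured genes of H3.3 deposition and telomere chromatin, 4 had a higher and 0 a lower level in GNPs relative to cerebellum. Over all genes, 14.9% were higher and 13.6% lower. Asf1b averaged 4.81 in GNPs and 2.72 in cerebellum, and Suv39h2 4.96 in GNPs and 3.17 in cerebellum. The mean level of the dividing cell markers was 6.39 to 6.54 in GNPs and 4.16 to 4.42 in cerebellum, and markers of other cell types differed between these tissues too, from 4.23 to 4.48 in GNPs and 11.15 to 11.21 in cerebellum for Purkinje cells and from 5.04 to 6.36 in GNPs and 9.60 to 9.65 in cerebellum for oligodendrocytes. The part of these markers in the differences was not tested.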
